A study of Homo sapiens with 6 samples.

Results

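Gluconeogenesis rebuilds glucose from pyruvate, and the enzymes described here are the ones that bypass the irreversible steps of glycolysis. The set named 8 genes: the enzyme genes PC, PCK1, PCK2, FBP1, FBP2, G6PC and G6PC3, and PPARGC1A, which encodes a transcriptional coactivator of the pathway. They were selected by symbol in the deposited table of 34234 genes. Of these, 6 were found and 5 had enough reads to be tested. PCK1, the cytosolic PEP carboxykinase gene, and PPARGC1A were not analysed here. All the symbols in the table had at least 1 count over the 6 libraries together.

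The libraries came from HCCLM3, a human hepatocellular carcinoma cell line with high metastatic potential. Of the 6 libraries, 3 were from cells given a lentivirus that delivered a hairpin against ATXN7L3 (shATXN7L3) and 3 from cells given a lentivirus with a control hairpin (shcontrol). Both groups therefore carried a lentiviral hairpin and grew in DMEM with serum. The labels give neither the hairpin sequences nor the time of harvest. They also do not say that replicates were separate cultures, so each p-value measures library-to-library spread alone, and that spread may be technical. ATXN7L3 is a subunit of the SAGA coactivator complex, in the module that removes ubiquitin from histones. The comparison asks what a lower level of it does to the transcripts of these cells.

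In liver and kidney cortex, pyruvate carboxylase (PC) turns pyruvate into oxaloacetate inside mitochondria. PEP carboxykinase, mitochondrial (PCK2) or cytosolic (PCK1), converts oxaloacetate to phosphoenolpyruvate. Fructose bisphosphatase, FBP1 in liver and FBP2 in muscle, removes a phosphate near the end of the route. The catalytic subunit of glucose-6-phosphatase, G6PC in liver and kidney and the broadly expressed G6PC3, releases free glucose or related sugars. Hepatocellular carcinomas often express less FBP1 than normal liver.

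The promoter windows of the 3 genes that changed are shown first, with that of G6PC beside them as the liver-restricted gene that was hardly detected. Each runs from 250 bases before to 50 bases after a RefSeq transcript start (GRCh38.p14) and is written 5′ to 3′ on the strand of the gene. Capitals mark the CCAAT box (CCAAT), the GC box (GGGCGG), the core of the cAMP response element (TGACG) and the TATA box (TATAAA), searched on both strands. No match of one motif overlaps a match of another in these windows.
PCK2 (chr14:24094061-24094360, plus strand): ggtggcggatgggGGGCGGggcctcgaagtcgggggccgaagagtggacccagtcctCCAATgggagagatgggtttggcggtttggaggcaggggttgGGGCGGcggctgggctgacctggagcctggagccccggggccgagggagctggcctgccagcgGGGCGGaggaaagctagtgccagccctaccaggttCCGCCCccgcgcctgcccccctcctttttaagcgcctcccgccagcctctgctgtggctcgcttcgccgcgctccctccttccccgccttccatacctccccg
PC (chr11:66958334-66958633, minus strand): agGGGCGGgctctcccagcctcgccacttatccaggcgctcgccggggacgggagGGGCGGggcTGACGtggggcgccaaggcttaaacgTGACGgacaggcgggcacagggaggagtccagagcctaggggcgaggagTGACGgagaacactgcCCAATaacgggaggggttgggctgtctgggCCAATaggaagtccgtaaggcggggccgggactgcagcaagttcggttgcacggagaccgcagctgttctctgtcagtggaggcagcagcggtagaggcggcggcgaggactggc
FBP1 (chr9:94639469-94639768, minus strand): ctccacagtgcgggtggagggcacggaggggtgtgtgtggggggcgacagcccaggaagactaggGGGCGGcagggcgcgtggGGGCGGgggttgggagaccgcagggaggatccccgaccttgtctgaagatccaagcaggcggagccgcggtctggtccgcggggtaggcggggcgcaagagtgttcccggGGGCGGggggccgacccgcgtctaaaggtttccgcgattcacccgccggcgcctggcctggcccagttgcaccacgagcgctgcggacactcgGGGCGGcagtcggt
G6PC (chr17:42900549-42900848, plus strand): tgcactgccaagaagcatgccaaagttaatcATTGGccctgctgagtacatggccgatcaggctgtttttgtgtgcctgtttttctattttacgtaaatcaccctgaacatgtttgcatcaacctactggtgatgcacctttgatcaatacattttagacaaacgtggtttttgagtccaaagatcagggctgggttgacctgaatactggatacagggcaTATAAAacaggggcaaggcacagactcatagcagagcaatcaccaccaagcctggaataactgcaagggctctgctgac

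The windows of PCK2, PC and FBP1 were rich in G and C (71.7%, 67.7% and 72.7%), while that of G6PC held 45.7%. The median over 35116 RefSeq promoter windows was 58.7%. GC boxes occurred 4 times in the PCK2 window, 4 times in the FBP1 window and 2 times in the PC window, and 45.0% of all windows hold at least 1. PC also held 3 cAMP response element cores, which 24.6% of all windows contain, and 2 CCAAT boxes (34.6% of all windows). G6PC was the 1 window of the 4 with a TATA box (11.5% of all windows). The composite element to which ATF4 and C/EBP proteins bind, searched as TGATGNAA, was found in the G6PC window and in 3.62% of all windows, and had no match in the printed PCK2 window. These are matches of letters in a short window and not evidence of binding. RefSeq lists 2 further starts for PC. The printed PC window is the one that holds the outermost start of that gene in the deposited table. The outermost starts of FBP1 (94640249) and PCK2 (24094053) in the deposited table lie outside their printed windows.

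The 6 genes differed in how the libraries covered them. PC lies on chromosome 11 (66848233 to 66958376, minus strand, GRCh38) and PCK2 on chromosome 14 (24094053 to 24110598, plus strand). FBP2 (94558720 to 94593793) and FBP1 (94603133 to 94640249) are neighbours on the minus strand of chromosome 9, 9339 bases apart. G6PC (42900797 to 42913369) and G6PC3 (44070735 to 44076344) lie on the plus strand of chromosome 17. G6PC3 ends 115460 bases before ATXN7L3, the targeted gene. FBP2 has 182 exon bases (13.9% of its length) in common with PCAT7, a noncoding gene on the opposite strand, and PC has 621 (10.5%) in common with LRFN4 on the opposite strand. Whether counting used the strand is not known, so reads in these bases cannot be told apart. No 50-base stretch of the FBP1, FBP2, PCK2 or PC transcripts of GENCODE 29 occurs in a transcript of another gene. Of the 50-base stretches of G6PC, 22 of 3336 (0.660%) occur in transcripts of 8 other genes, and of those of G6PC3, 22 of 4842 (0.454%) occur in transcripts of 3 other genes.

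ATXN7L3 stood at 20.2 ± 0.655 CPM in shATXN7L3 and 37.1 ± 0.647 CPM in shcontrol (mean ± SD, n = 3 each), where CPM scales each count to the library's total over tested genes after TMM adjustment. The log2 fold change was -0.88 ± 0.056 (SE; edgeR adjusted p = 6.69e-10). Library totals ran from 22376867 to 23915783 counts, and no library was left out. The libraries within shcontrol differed more from each other than those within shATXN7L3 (chi-square per gene 3.60 to 6.52 in shcontrol pairs and 1.59 to 2.18 in shATXN7L3 pairs). Hepatocyte markers had a summed level over the 10 fixed genes of 179 to 184 CPM in shATXN7L3 and 443 to 495 CPM in shcontrol. TF had the largest part of the shcontrol sum, at 206 ± 20.2 CPM, and stood at 35.9 ± 0.913 CPM in shATXN7L3. Of the 8 markers that could be tested, 8 fell (edgeR, adjusted p under 0.05), beside 12.0% lower among all tested genes. The smallest p-values were those of TF (-2.52), ALB (-1.44), SERPINA1 (-1.80) and FGB (-0.70), given as log2 fold changes. HNF4A, also in the list of regulators, was among the 8. TTR (-1.22) lost its call with DESeq2 (adjusted p = 0.0926) and without shATXN7L3 replicate 1 (0.0651) or 3 (0.153) or shcontrol replicate 1 (0.0697) or 3 (0.0673). AFP (-0.51) lost it with DESeq2 (0.113) and without shATXN7L3 replicate 2 (0.110) or 3 (0.0915) or shcontrol replicate 3 (0.0765). APOA1 and CPS1 had too few reads to test.

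Among the 5 tested gluconeogenesis genes, PCK2 rose, FBP1 and PC fell, and FBP2 and G6PC3 did not pass the test (edgeR quasi-likelihood test, Benjamini-Hochberg adjusted p under 0.05 over all 17935 tested genes). This test called 24.2% of all tested genes, 12.2% higher and 12.0% lower in shATXN7L3. Of the called genes 50.4% were higher, and 64.8% were with scaling by library size alone. The median log2 fold change of the 5 was -0.40, against 0.01 over all tested genes. With 5 genes, a count of 3 called is a description and is not set apart from the background. In bulk RNA of a cell line, fewer cells that express a gene and less of its RNA per cell cannot be told apart.

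**Figure D1:**
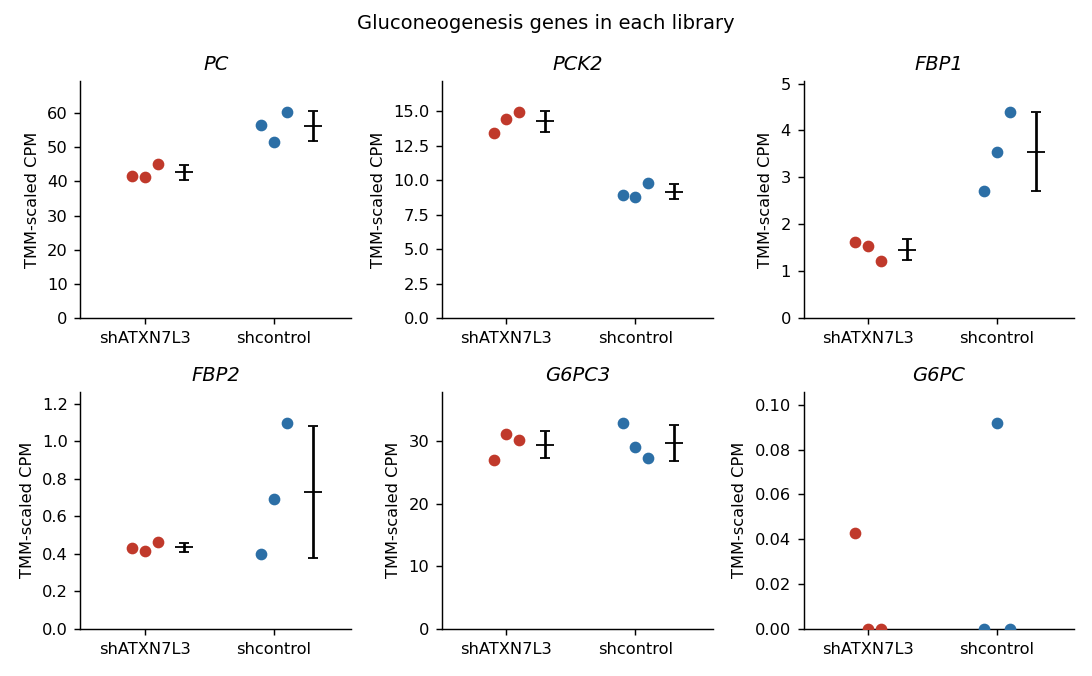
TMM-scaled CPM of 6 gluconeogenesis genes in each library, shATXN7L3 left and shcontrol right; points are libraries and black marks the mean ± SD of 3, not drawn for G6PC. PCK2 is higher and PC and FBP1 are lower in all shATXN7L3 libraries than in any shcontrol library, and G6PC stays below 0.1 CPM. Among all tested genes, 19.8% are higher and 18.4% lower in this way.

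PC, the entry step, had 41.6, 41.2 and 45.2 CPM in the shATXN7L3 libraries and 56.4, 51.6 and 60.3 CPM in the shcontrol libraries. The shATXN7L3 libraries were each lower than any shcontrol library, as in 18.4% of all tested genes. The counts behind these values were 968 to 1080 in shATXN7L3 and 1122 to 1372 in shcontrol. PC fell by 0.40 on the log2 scale (SE 0.059, edgeR adjusted p = 5.25e-05), which left 76.0% of the shcontrol level (70.0% to 82.5% at 2 SE). LRFN4, which overlaps PC on the opposite strand, stood at 0.561 ± 0.205 CPM in shATXN7L3 and 0.702 ± 0.111 CPM in shcontrol (n = 3 each), far less than PC. The exact permutation test of 3 against 3 libraries gave p = 0.1 for PC, the smallest value this design allows.

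PCK2, which makes phosphoenolpyruvate inside mitochondria, moved the other way. It had 13.4, 14.4 and 14.9 CPM in the shATXN7L3 libraries and 8.93, 8.79 and 9.80 CPM in the shcontrol libraries. Every shATXN7L3 library was above every shcontrol library, as in 19.8% of all tested genes. The log2 fold change was 0.64 ± 0.081 (SE, edgeR adjusted p = 7.73e-06), or 155% of the shcontrol level (139% to 174% at 2 SE), and the exact permutation p was 0.1. Counts of 312 to 357 in shATXN7L3 and 191 to 223 in shcontrol stand behind it.

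FBP1, the liver fructose bisphosphatase, had the largest fold change of the 5 tested genes. It had 1.63, 1.54 and 1.21 CPM in the shATXN7L3 libraries and 2.71, 3.54 and 4.39 CPM in the shcontrol libraries. Each shATXN7L3 library was lower than any shcontrol library, as in 18.4% of all tested genes. The shcontrol libraries spread more than the shATXN7L3 libraries. FBP1 fell by 1.28 on the log2 scale (SE 0.20, edgeR adjusted p = 6.65e-05; exact permutation p = 0.1), which left 41.2% of the shcontrol level (31.4% to 54.0% at 2 SE). The gene was low: it gathered 29 to 38 counts in the shATXN7L3 libraries and 61 to 100 in the shcontrol libraries.

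FBP2, the muscle form, was near the lower limit of what was tested. It had 10, 10 and 11 counts in the shATXN7L3 libraries and 9, 15 and 25 in the shcontrol libraries, that is 0.430, 0.415 and 0.460 CPM against 0.400, 0.690 and 1.10 CPM. The groups overlapped, since shcontrol replicate 1 was below all shATXN7L3 libraries. The log2 fold change was -0.74 ± 0.36 (SE; -1.46 to -0.03 at 2 SE), which did not pass (edgeR adjusted p = 0.147, exact permutation p = 0.4). Without shcontrol replicate 1 it was -1.04 and passed (edgeR adjusted p = 0.0304). PCAT7, the noncoding gene with exon bases in common with FBP2 on the other strand, stood at 1.66 ± 0.143 CPM in shATXN7L3 and 2.89 ± 0.759 CPM in shcontrol (n = 3 each; log2 fold change -0.80 ± 0.20, edgeR adjusted p = 0.00476). Its part in the FBP2 value was not tested. FBP1 has no exon base in common with another gene of the table.

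G6PC3, the broadly expressed glucose-6-phosphatase catalytic subunit, had 27.0, 31.1 and 30.2 CPM in the shATXN7L3 libraries and 33.0, 29.0 and 27.3 CPM in the shcontrol libraries. The groups overlapped throughout. Its log2 fold change was -0.02 ± 0.070 (SE, edgeR adjusted p = 0.902, exact permutation p = 0.9), and the interval at 2 SE ran from -0.16 to 0.13. The sign of this small value turned with scaling by library size alone (0.0277) and when shATXN7L3 replicate 1 (0.04) or shcontrol replicate 1 (0.06) was left out.

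G6PC, the liver and kidney form that completes glucose release, was hardly detected. It had 1, 0 and 0 counts in the shATXN7L3 libraries and 0, 2 and 0 in the shcontrol libraries. A count of 0 allows up to 3 counts, or 0.124 to 0.138 CPM per library, for counting error only. Both groups are under that floor, so no fold is given and no difference was detectable at this depth. SLC37A4, which carries glucose 6-phosphate to the same enzyme, was present at 17.0 ± 0.115 CPM in shATXN7L3 and 15.2 ± 0.447 CPM in shcontrol (n = 3 each; log2 fold change 0.17 ± 0.066, edgeR adjusted p = 0.0761). SLC2A2, the glucose transporter of hepatocytes, was not tested for lack of reads. SLC37A4 and SLC2A2 were named after their values were seen.

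**Figure D2:**
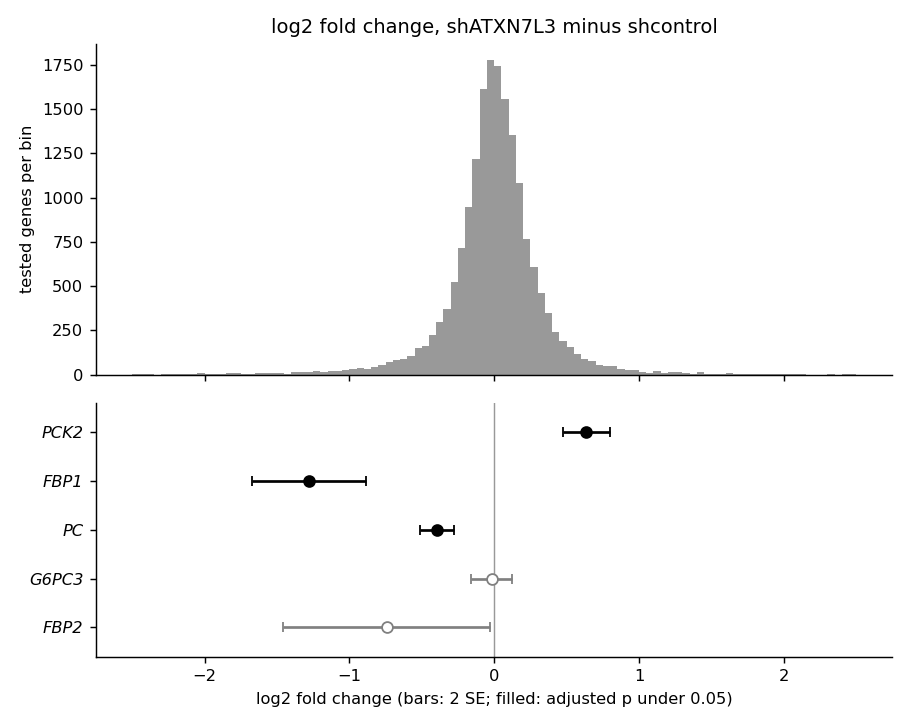
Upper panel: histogram of log2 fold changes (shATXN7L3 minus shcontrol) of all 17935 tested genes, with values beyond the axis placed in the end bins. Lower panel: the 5 tested gluconeogenesis genes with bars of 2 SE, filled where adjusted p is under 0.05; PCK2 (0.64) lies right of 0, FBP1 (-1.28) and PC (-0.40) left of it, and G6PC3 (-0.02) at it.

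The calls of PC, PCK2 and FBP1 held in all 14 alternative analyses run. Over these, the log2 fold change of PC lay between -0.45 and -0.35 (largest adjusted p 0.00142). That of PCK2 lay between 0.60 and 0.68 (largest adjusted p 0.000186) and that of FBP1 between -1.44 and -1.10 (largest adjusted p 0.00121).

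Per kilobase of exonic length, the order was the same in both groups. This length counts all annotated exon bases of a gene and not those of a single transcript. It was 4551 bases for G6PC3, which spans 5610, and 1668 for FBP1. Comparisons between genes per length, here and below, therefore depend on the annotation. PC came first with 7.20 ± 0.373 CPM per kb in shATXN7L3 and 9.47 ± 0.730 in shcontrol (SD, n = 3 each). G6PC3 followed with 6.47 ± 0.474 in shATXN7L3 and 6.54 ± 0.636 in shcontrol. PC and G6PC3 lay closer together in shATXN7L3, where the gap between them was less than 2 SD of either. PCK2 had 3.41 ± 0.185 CPM per kb in shATXN7L3 and 2.19 ± 0.130 in shcontrol. FBP1 had 0.876 ± 0.132 in shATXN7L3 and 2.13 ± 0.505 in shcontrol. In shcontrol, PCK2 and FBP1 therefore did not differ beyond their spread, and in shATXN7L3 PCK2 was 3.27 to 4.90 times FBP1 per length, against 0.888 to 1.31 times in the shcontrol libraries. FBP2 stood at 0.333 ± 0.0177 in shATXN7L3 and 0.559 ± 0.269 in shcontrol, and G6PC last.

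The balance between the mitochondrial steps also differed. The ratio of PCK2 to PC per length was 0.456, 0.496 and 0.468 in the shATXN7L3 libraries and 0.224, 0.241 and 0.230 in the shcontrol libraries, with no overlap. Since this ratio joins a gene that rose and a gene that fell, it repeats those changes and was not tested on its own. Averaged over all libraries, PC was above 71.2% of the 12688 tested protein-coding genes in level per length. G6PC3 was above 64.7%, PCK2 above 41.3%, FBP1 above 27.0% and FBP2 above 10.8%.

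**Figure D3:**
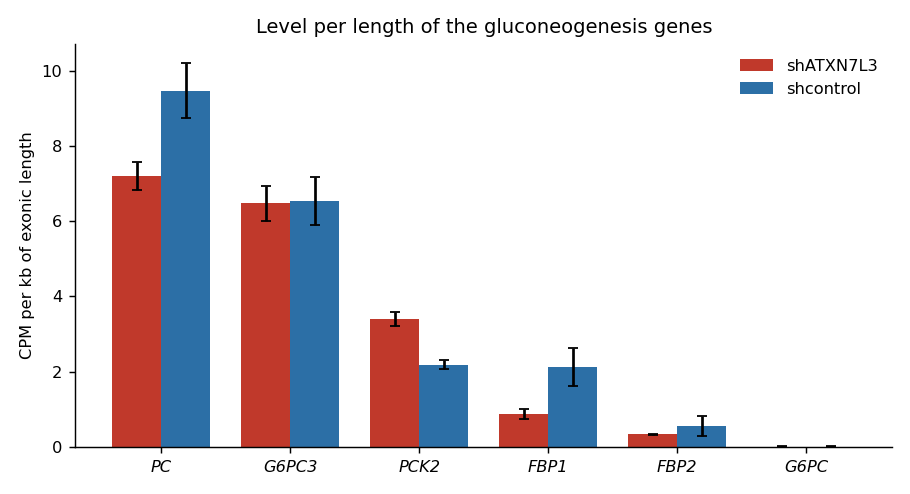
Mean CPM per kb of exonic length of 6 gluconeogenesis genes, shATXN7L3 bars left of shcontrol bars; error bars are SD of 3 libraries. PC and G6PC3 are the highest in both groups, and PCK2 and FBP1, level in shcontrol, stand apart in shATXN7L3 (3.41 and 0.876).

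Some genes followed the profiles of the called members closely over the 6 libraries, judged by Pearson correlation of log2 CPM among 11879 protein-coding genes with an average of at least 1 CPM. Closest to PCK2 were COL7A1, FRMD4B and MICAL1 (r = 0.998, 0.997 and 0.997), of which COL7A1 did not itself pass the test (edgeR adjusted p = 0.142). Closest to PC were SPECC1, GCNT1 and ADCY6 (r = 0.997, 0.996 and 0.995), and closest to FBP1 were MGAT4A, MARC1 and RIOK3 (r = 0.994, 0.991 and 0.991). With 6 libraries in 2 groups such values are common: 128 genes exceeded 0.98 with PCK2, 44 with PC and 39 with FBP1. The points share libraries and depth, so this is a description only.

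PCK2 is also known as a target of ATF4, the transcription factor of the amino acid and endoplasmic reticulum stress response, together with genes of serine synthesis. In a list of 11 such genes, 8 rose, 1 fell and 1 did not pass among the 10 tested, beside a background of 12.2% higher and 12.0% lower. The median log2 fold change was 0.28, against 0.01 over all tested genes. MTHFD2, the other gene of the list, had too few reads to test. It had 0 counts in each shATXN7L3 library and 2, 0 and 1 in the shcontrol libraries. This list was chosen with earlier results of these data known, so its counts are a description. A link between ATF4 and the change of PCK2 was not tested. ATF4 itself stood at 166 ± 3.08 CPM in shATXN7L3 and 129 ± 6.02 CPM in shcontrol (SD, n = 3 each; log2 fold change 0.37 ± 0.046, edgeR adjusted p = 5.57e-06). ASNS, asparagine synthetase, had 55.0 ± 4.07 CPM in shATXN7L3 and 40.9 ± 1.71 CPM in shcontrol (0.43 ± 0.058, edgeR adjusted p = 1.81e-05).

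ALDH1L2, a mitochondrial enzyme of folate metabolism, stood at 19.5 ± 1.47 CPM in shATXN7L3 and 11.9 ± 1.40 CPM in shcontrol (log2 fold change 0.71 ± 0.085). PSAT1, an aminotransferase of serine synthesis, stood at 216 ± 8.49 CPM in shATXN7L3 and 175 ± 7.32 CPM in shcontrol (0.30 ± 0.046). PSPH (0.24), SHMT2 (0.20), PHGDH (0.17) and CHAC1 (0.58) rose as well, and SESN2 (0.26) did not pass (edgeR adjusted p = 0.0631). DDIT3, a stress-induced transcription factor often switched on together with ATF4, was the member that fell, by 0.22 (log2; edgeR adjusted p = 0.0131). Its call ended without shATXN7L3 replicate 1 (0.0508) or 3 (0.061) or shcontrol replicate 2 (0.0734), and 28.0% of its exon bases overlap MARS on the opposite strand. CHAC1 lost its call with DESeq2 (0.142) and without any of the shATXN7L3 replicates (0.105, 0.129 and 0.0566) or shcontrol replicate 3 (0.193). PHGDH lost its call with DESeq2 (0.0573) and without shATXN7L3 replicate 2 (0.128) or 3 (0.0627) or shcontrol replicate 2 (0.056). The count of higher genes lay between 6 and 9 over the 14 alternatives. DDIT3, PSPH, SHMT2, PHGDH, CHAC1, SESN2 and MTHFD2 were named after their values were seen.

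**Figure D4:**
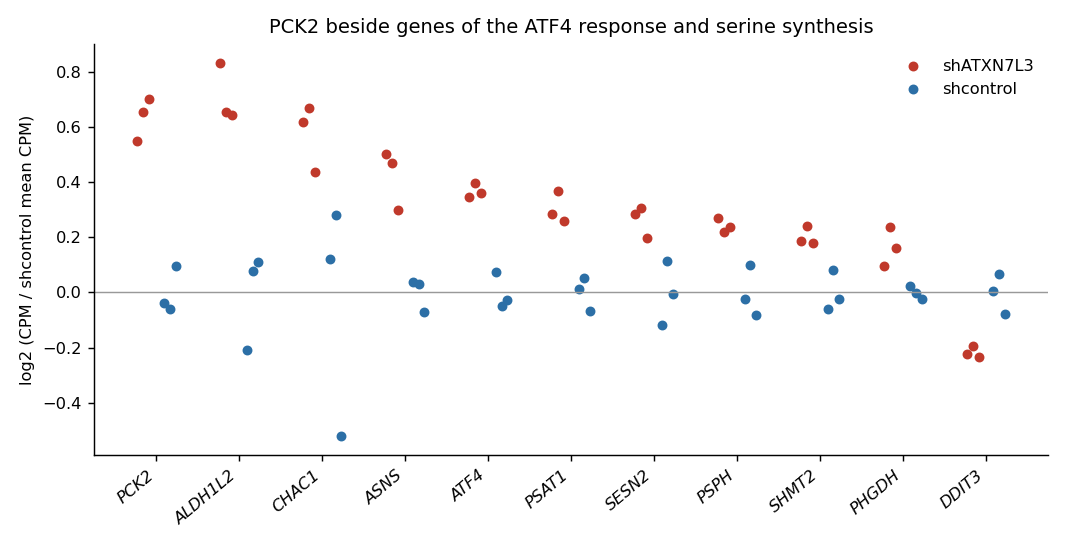
Log2 ratio of each library's CPM to the shcontrol mean for PCK2 and 10 tested genes of the ATF4 response and serine synthesis, shATXN7L3 points left and shcontrol points right. All genes drawn except DDIT3 are higher in every shATXN7L3 library than in any shcontrol library, and DDIT3 is lower in each. Among all tested genes, 19.8% are higher and 18.4% lower in this way. The list was chosen with earlier results of these data known.

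Transcription factors and cofactors that act on gluconeogenesis genes in liver were called about as often as other genes. Among the 24 with enough reads, 2 rose, 4 fell and 18 did not pass (median log2 fold change -0.03), beside 24.2% called among all tested genes. With scaling by library size alone the balance turned, to 4 higher and 2 lower. HNF4A, a nuclear receptor that sustains hepatocyte genes, had 33.4 ± 0.115 CPM in shATXN7L3 and 43.5 ± 2.30 CPM in shcontrol (log2 fold change -0.38 ± 0.054, edgeR adjusted p = 2.92e-05). CEBPA, a liver C/EBP factor, had 24.7 ± 1.56 CPM in shATXN7L3 and 33.5 ± 3.15 CPM in shcontrol (-0.44 ± 0.069, edgeR adjusted p = 8.80e-05). On the opposite strand, CTD-2540B15.11 overlaps 25.0% of its exon bases and CTD-2540B15.7 overlaps 18.3%. ESRRA, an orphan receptor that works with the coactivator PGC-1alpha, rose (0.30 ± 0.072, edgeR adjusted p = 0.00462).

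The glucocorticoid receptor NR3C1 fell by 0.18 and the coactivator CREBBP by 0.16 on the log2 scale, and KAT2A, an acetyltransferase of the SAGA complex that also modifies PGC-1alpha, rose by 0.16. NR3C1 lost its call with scaling by library size alone (adjusted p = 0.0678) and without shATXN7L3 replicate 2 (0.0899). CREBBP lost it with library size alone (0.104), without shATXN7L3 replicates 1, 2 and 3 (0.0783, 0.0859 and 0.0604) and without shcontrol replicate 3 (0.0578). KAT2A lost it with DESeq2 (0.0898) and without shATXN7L3 replicate 1 (0.0585) or 3 (0.169) or shcontrol replicate 2 (0.0931). FOXO1, CREB1, CRTC2 and PPARGC1B, which carry the fasting and glucagon signal or parallel PGC-1alpha, did not pass (log2 fold changes 0.04, 0.18, -0.01 and 0.17). CREBBP, KAT2A and these 4 were named after their values were seen.

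Of 16 tested genes of the hormone signal, 2 rose and 14 did not pass (median 0.05), beside 24.2% called among all tested genes. Those that rose were TRIB3 (0.29 ± 0.050, edgeR adjusted p = 2.01e-04) and TRIB1 (0.18 ± 0.048, edgeR adjusted p = 0.0114), pseudokinases that restrain AKT or C/EBP proteins. TRIB1 lost its call without shATXN7L3 replicate 2 (0.0825). The glucagon receptor GCGR was low, at 1.58 ± 0.222 CPM in shATXN7L3 and 1.46 ± 0.457 CPM in shcontrol, and did not pass (edgeR adjusted p = 0.766).

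Around glucose output and glycogen, 4 of 9 tested genes rose, 1 fell and 4 did not pass (median log2 fold change 0.17). Among all tested genes, 12.2% were higher and 12.0% lower. GYS1, the glycogen synthase of most tissues, had 55.6 ± 1.17 CPM in shATXN7L3 and 39.4 ± 2.17 CPM in shcontrol (0.50 ± 0.053, edgeR adjusted p = 8.77e-07). PGM1, which interconverts the glucose phosphates (0.30 ± 0.067), and the branching enzyme GBE1 (0.18 ± 0.047) rose too. So did PYGL, a glycogen phosphorylase (0.23 ± 0.062, edgeR adjusted p = 0.00912), which lost its call without shATXN7L3 replicate 1 (0.0564). PYGL was named after its value was seen. The glucose transporter SLC2A1 fell by 0.51 (SE 0.059, edgeR adjusted p = 2.51e-06). With scaling by library size alone 7 genes of this list were higher.

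The reversible enzymes that glycolysis and gluconeogenesis have in common rose in 4 of 11 tested cases, and the other 7 did not pass (median 0.12). Among all tested genes, 12.2% were higher and 12.0% lower. ENO2, the neuronal enolase form, rose by 1.02 (SE 0.062, edgeR adjusted p = 2.86e-10). TPI1 (0.18), PGK1 (0.13) and GAPDH (0.12) rose by less. Their calls were less firm: TPI1 lost its call without shATXN7L3 replicate 2 (adjusted p = 0.0698) and PGK1 without shATXN7L3 replicates 1, 2 and 3 (0.062, 0.22 and 0.0785) or shcontrol replicate 2 (0.0701). GAPDH lost it in 8 of 14 alternatives, up to an adjusted p of 0.21 without shATXN7L3 replicate 2. The count of higher genes in this list was 8 with library size alone, 1 without shATXN7L3 replicate 2, 2 without shATXN7L3 replicate 3 and 2 without shcontrol replicate 2.

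Enzymes of the opposing glycolytic steps gave 2 higher, 1 lower and 2 not passed among 5 tested, beside 24.2% called among all tested genes. PFKM, a phosphofructokinase chain, rose (0.34 ± 0.047, edgeR adjusted p = 2.38e-05), as did PFKP (0.15). PKM, pyruvate kinase, fell by 0.13. PFKP lost its call when shATXN7L3 replicate 1, 2 or 3 was left out (0.0748, 0.0689 and 0.0515). PKM lost it without shATXN7L3 replicate 1 (0.211) or 3 (0.123) or shcontrol replicate 2 (0.0514) and with library size alone (0.0761). PKLR, the pyruvate kinase gene of liver, had too few reads to test.

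Of the 4 tested enzymes that set fructose 2,6-bisphosphate, an inhibitor of fructose bisphosphatase, 2 rose, 1 fell and 1 did not pass. Over all tested genes 24.2% were called. TIGAR (0.20 ± 0.058, edgeR adjusted p = 0.0181) and PFKFB4 (0.79 ± 0.25, edgeR adjusted p = 0.0255) rose and PFKFB3 fell (-0.15 ± 0.046, edgeR adjusted p = 0.0204). Each of these calls ended in 4 of 14 alternatives. TIGAR lost it with DESeq2 (0.0746) and without shATXN7L3 replicate 1 (0.0854) or 2 (0.0725) or shcontrol replicate 3 (0.0593). PFKFB4 lost it with DESeq2 (0.0737) and without shATXN7L3 replicate 2 (0.165) or 3 (0.0998) or shcontrol replicate 2 (0.108). PFKFB3 lost it with library size alone (0.104) and without shATXN7L3 replicate 1 (0.0666) or 3 (0.133) or shcontrol replicate 2 (0.0553).

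Substrate entry gave 2 higher, 2 lower and 12 not passed among 16 tested genes (median 0.01), beside 24.2% called among all tested genes. With scaling by library size alone 5 were higher, and without shATXN7L3 replicate 2 neither of the higher calls held. MPC2, a subunit of the mitochondrial pyruvate carrier, fell by 0.26 (SE 0.063, edgeR adjusted p = 0.00487), with 22.5% of its exon bases overlapping DCAF6 on the opposite strand. LDHA (0.16) and MDH2 (0.17) rose, and GPD1, which feeds glycerol into the route, fell by 0.45. LDHA lost its call without shATXN7L3 replicate 2 (0.0761), and MDH2 without shATXN7L3 replicate 2 (0.186) or shcontrol replicate 2 (0.0714) or 3 (0.0666). GPD1 lost it with DESeq2 (0.114), without shATXN7L3 replicates 1, 2 and 3 (0.0793, 0.0794 and 0.0573) and without shcontrol replicates 1 and 2 (0.0872 and 0.0858).

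At the pyruvate dehydrogenase complex, which competes with PC for pyruvate, 3 of 11 tested genes rose, 1 fell and 7 did not pass (median 0.04). The background over all tested genes was 12.2% higher and 12.0% lower. PDK1, a kinase that switches the complex off, rose to 15.9 ± 0.392 CPM in shATXN7L3, against 11.9 ± 1.11 CPM in shcontrol (0.42 ± 0.078, edgeR adjusted p = 4.08e-04). The kinase PDK4 (0.37) and the subunit DLAT (0.17) rose and the subunit DLD fell by 0.15. PDK4 lost its call with DESeq2 (0.089) and without shATXN7L3 replicate 1 (0.113) or 2 (0.13) or shcontrol replicate 2 (0.153), and DLAT without shcontrol replicate 2 (0.0501). DLD lost it with library size alone (0.0586) and without shATXN7L3 replicate 1 (0.0725) or 3 (0.109) or shcontrol replicate 2 (0.09).

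Of 9 tested genes that act with PGC-1alpha or in mitochondrial biogenesis, 4 rose, 1 fell and 4 did not pass (median 0.07). The background over all tested genes was 12.2% higher and 12.0% lower. CPT1A, which admits fatty acids to mitochondria, fell by 0.31 (SE 0.042, edgeR adjusted p = 1.33e-05). ESRRA, counted among the regulators as well, CYCS (0.21) and GABPA (0.19) were among those that rose. CYCS lost its call without shATXN7L3 replicate 2 (0.0562) and GABPA without shATXN7L3 replicate 3 (0.0657). TFB1M, a mitochondrial RNA methyltransferase gene, was the other that rose (0.36 ± 0.13, edgeR adjusted p = 0.0431). It lost its call with DESeq2 (0.143), without shATXN7L3 replicates 1, 2 and 3 (0.0812, 0.116 and 0.106) and without shcontrol replicate 3 (0.217). Without shATXN7L3 replicate 2 or 3, 2 genes of the list were higher. TFAM, the mitochondrial transcription factor, did not pass (0.03, edgeR adjusted p = 0.665). TFB1M and TFAM were named after their values were seen.

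**Figure D5:**
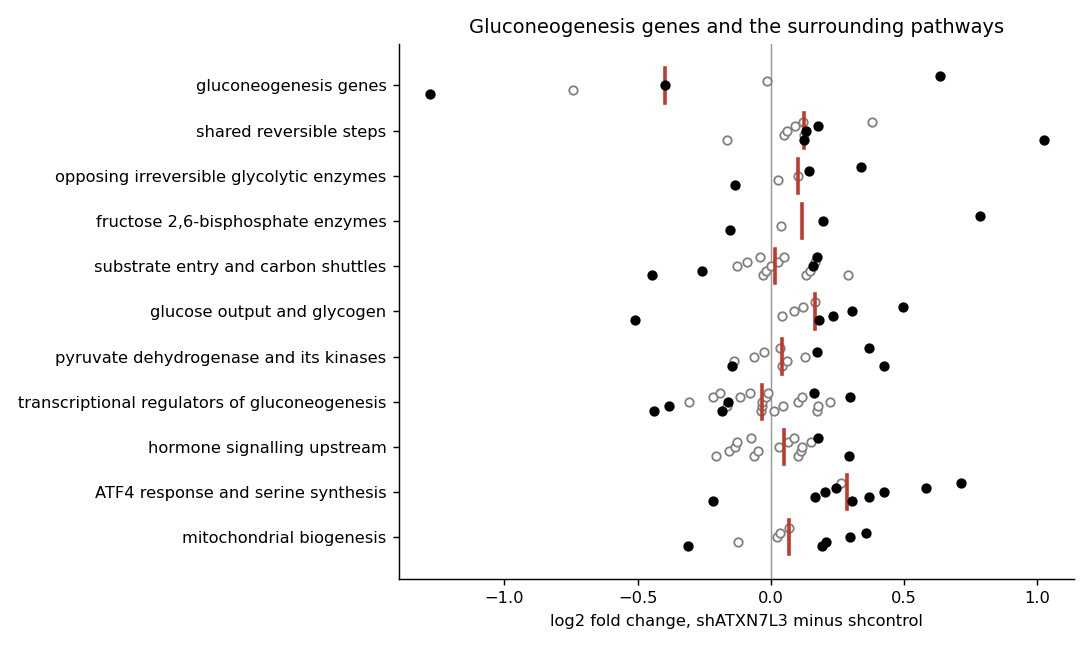
Log2 fold change (shATXN7L3 minus shcontrol) of each tested gene in the gluconeogenesis set and 10 surrounding lists; filled points have adjusted p under 0.05, open points do not, and red bars are list medians. The gluconeogenesis genes spread from -1.28 to 0.64, and the list of the ATF4 response and serine synthesis has its median at 0.28.

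All libraries came from the HCCLM3 cell line. Among markers of other gluconeogenic or neighbouring cell types, most had too few reads to test, but some were well detected. The 6 skeletal muscle markers, the tissue of FBP2, summed to 0.124 to 0.258 CPM in shATXN7L3 and 0.308 to 0.444 CPM in shcontrol, with 4 of the 6 in the table and none tested. Of the 6 kidney proximal tubule markers, 1 was tested, SLC5A2 (log2 fold change 0.03, edgeR adjusted p = 0.776). It stood at 30.8 ± 0.727 CPM in shATXN7L3 and 30.1 ± 2.94 CPM in shcontrol (n = 3 each). On the opposite strand, C16orf58 overlaps 31.1% of its exon bases. The other kidney markers in the table had at most 17 counts in a group. Leukocyte markers summed to 5.33 to 5.61 CPM in shATXN7L3 and 3.31 to 5.01 CPM in shcontrol, with ITGAM higher (0.85) and LYZ lower (-2.42). LYZ was low, with 6, 2 and 4 counts in the shATXN7L3 libraries and 22, 14 and 26 in the shcontrol libraries. RP11-1143G9.4 on the opposite strand overlaps 34.0% of the LYZ exon bases. Endothelial markers summed to 42.6 to 44.4 CPM in shATXN7L3 and 57.3 to 62.3 CPM in shcontrol, nearly all from PECAM1 (-0.64) and KDR (-0.02). Fibroblast and stellate markers summed to 5.35 to 6.15 CPM in shATXN7L3 and 23.6 to 28.1 CPM in shcontrol, nearly all from LUM (-2.29). The part of these differences, and of the lower hepatocyte markers, in the changes of FBP1, PC and PCK2 was not tested.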

How the data were processed

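Poly-A RNA was sequenced in 6 HCCLM3 libraries. The authors deposited 1 table of raw read counts per gene symbol with exon coordinates and lengths. Per the submitters' processing notes, the tools included edgeR 3.12.1, Subread 1.5.1 with featureCounts, STAR 2.5.3a and Trimmomatic 0.36, on build GRCh38. The sources used here name no strand setting or annotation release. The treatment field set the groups, and titles gave the replicate numbers.

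Counts were filtered with filterByExpr (minimum count 10, minimum total 15), scaled by TMM (factors 0.972 to 1.02) and tested on the whole table with the quasi-likelihood test of edgeR 4.0.16 in R 4.3.3, with group as the only term and Benjamini-Hochberg adjustment at 0.05. The SE is the log2 fold change divided by the square root of F, an approximation. The procedure was run on simulated data that had the same spread beyond counting error for all genes and both groups. That simulation does not reproduce spread particular to a gene or the wider spread of the shcontrol libraries. Alternatives were other scalings, filters, DESeq2 1.42.0, limma voom (limma 3.58.1), a replicate block and leaving out each library. Permutation tests were two-sided on log2 CPM (prior count 2). Intervals and floors cover counting error or library spread only.

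Gene types and transcripts came from GENCODE 29 and promoter windows from RefSeq (all 6 genes in the table matched, G6PC as G6PC1). Protein sequences, and with them the planned comparison of paralog proteins, were not used here. From each surrounding list the text names up to 4 called genes with the smallest p, or the 2 with the highest CPM where none passed, and the 3 genes most like each called member. Genes outside this rule, those without enough reads among them, were named after their values were seen. The members and lists were chosen with earlier results of these data known.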

Additional observations from a re-analysis of the deposited data

How the results depend on the processing

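Of the 14 alternatives, DESeq2 called 1405 genes higher and 1603 lower in shATXN7L3 (46.7% higher), against 2182 higher and 2150 lower by edgeR (50.4% higher), and scaling by library size alone gave 2955 higher and 1604 lower, a share of 64.8% higher. Leaving out single libraries gave 3090 to 4405 called genes (1543 to 2224 higher, 1547 to 2257 lower), 27 to 48 called genes in the surrounding lists (44 with all libraries) and 3 to 4 called gluconeogenesis genes. FBP2 was the additional call (log2 fold change -1.04 without shcontrol replicate 1; -1.04 to -0.32 over the libraries left out). G6PC3 turned sign with library size alone (0.0277) and lay between -0.0788 and 0.0648 with single libraries left out. SLC5A2 turned sign without shcontrol replicate 3 (-0.044) and reached 0.102 without shcontrol replicate 1. Of the 44 called list genes, 19 kept their call in all alternatives and 25 lost it in at least 1; apart from changes that follow from fewer libraries, the cause was not tested.

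Same-numbered replicates did not deviate together (correlations -0.016, 0.0051 and 0.044), and not every library correlated best with its own number. With a replicate block, 2188 genes were higher and 2140 lower, 49 list genes were called, and the log2 fold changes of the gluconeogenesis genes kept their calls.

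Depth limits FBP1, FBP2 and G6PC, at 100 counts or fewer per library.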
